A study of Mus musculus with 10 samples.

Results

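The late part of a time course of trichostatin A (TSA) in the mouse testis was compared: the pool taken 10 h after injection against the pool taken 7.5 h after it. TSA inhibits histone deacetylases, enzymes that remove acetyl groups from histone tails. The 4 arrays of these pools were chosen by their titles from the 10 of the series, and all 9897 probes with values entered. Male Balb-c mice, 9 weeks old, had received 1 subcutaneous injection of 60 ug TSA each and were killed 2.5, 5, 7.5 or 10 h later. The control mice received the carrier of dimethylsulfoxide and PBS alone and were killed at 10 h. Each of the 5 groups held 3 mice, whose testis RNA was combined into 1 pool, and each pool was read on 2 one-colour CodeLink arrays. The control pool did not enter the comparison and its values are given as a description. Each pool is n = 1, its duplicate arrays are technical, and the spread between animals was not measured, so no p-value is given. The labels do not state the hour of the day at each killing, so time after injection and time of day cannot be told apart.

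The testis holds germ cells at every stage from spermatogonium to spermatid inside the seminiferous tubules, Sertoli cells that nurse them, contractile peritubular cells around them, and steroid-making Leydig cells between them. In Leydig cells, luteinizing hormone acts through cyclic AMP to raise Star, which carries cholesterol into the mitochondrion. Cyp11a1, the 3-beta-hydroxysteroid dehydrogenases and Cyp17a1 then turn it into androgen. Nuclear receptors such as Nr5a1 bind half-sites in the promoters of these genes, and Nr0b1 is a repressor that acts on Nr5a1.

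Markers of the testis fitted the tissue label. The summed intensity of 10 measured germ cell markers was 907.8 to 908 on the 7.5 h arrays and 884.5 to 936.1 on the 10 h arrays. Liver markers, of which 5 of 6 were measured, summed to 4.84 to 5.02 at 7.5 h and to 5.49 to 5.57 at 10 h, against 137.9 to 138.5 in the 5 h pool. The liver markers' part in results that use the 5 h pool was not tested. Duplicate arrays correlated with r between 0.995 and 0.998. The 7.5 h duplicates stood furthest apart: 53 of the 7422 compared probes differed over 2-fold between them, against 13 at 10 h. In bulk RNA, fewer cells of a type and less RNA per cell cannot be told apart.

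Few probes moved far between the pools. Intensities were compared on the log2 scale, and a probe was called where the pool means differed at least 2-fold and both arrays of one pool lay above both of the other. By that rule 11 of 7422 probes were higher at 10 h (0.148%) and 12 were lower (0.162%). At 1.5-fold the counts were 93 (1.25%) and 97 (1.31%), and either way 2.56%. Over all 9897 probes, dim ones included, 1.2% were higher and 1.57% lower by 2-fold. With no limit on size, both 10 h arrays lay above both 7.5 h arrays for 29.5% of probes and below for 27.6% (57.1% either way), so a lack of overlap alone is common here. With an offset of 0.5 added before the logarithm, which shrinks differences of dim probes most, 0 probes were higher and 2 lower by 2-fold. Of the 23 probes past 2-fold, 18 lay in the dimmest of 3 equal classes of probes, and 12 had a pool whose mean was under the level of the filter on dim probes. Only 2 of the 23, Star and Klk1b24, were brighter than the median compared probe, at 1.99.

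**Figure D1:**
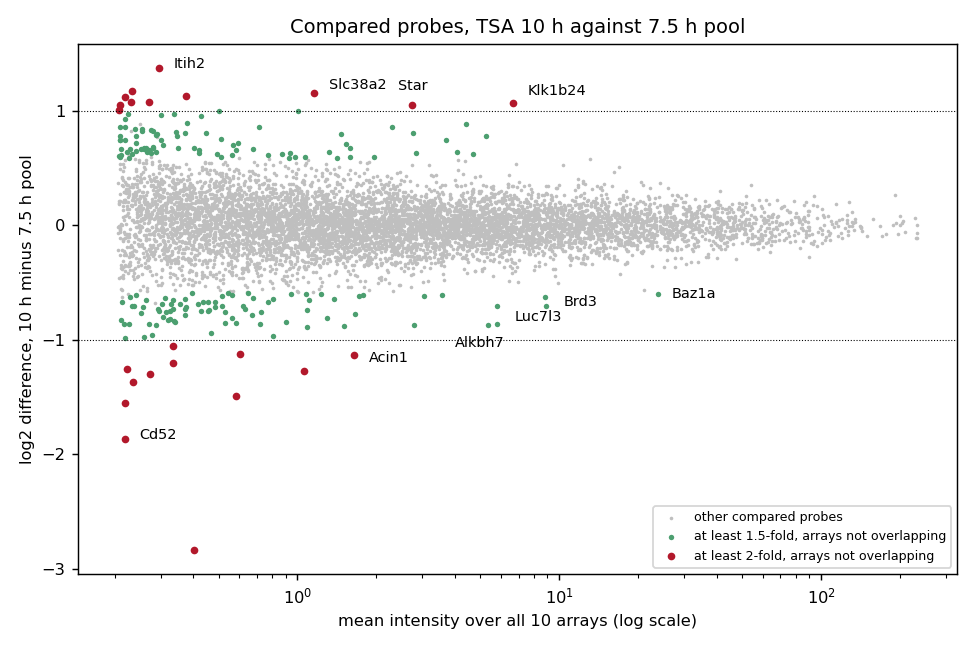
Each point is 1 of 7422 compared probes, with its mean intensity over all 10 arrays (log scale) against the log2 difference of the 10 h pool minus the 7.5 h pool. Dotted lines mark 2-fold; red points past them lie mostly at low intensity, and Star and Klk1b24 are the 2 at higher intensity.

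Genes of steroid synthesis were higher at 10 h. Star read 1.79 and 1.66 on the 7.5 h arrays and 3.59 and 3.56 on the 10 h arrays, a log2 difference of 1.05 ± 0.054 (SE from duplicate arrays). The control arrays read 3.37 and 3.08, the 2.5 h arrays 3.09 and 2.98 and the 5 h arrays 2.54 and 2.57. The 7.5 h pool was thus the lowest of all 5 pools for Star, and the 10 h arrays lay above every other array. Without the second 7.5 h array the difference came to just under 2-fold, and with an offset of 0.5 added before the logarithm it was 0.87.

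Hsd3b1, a 3-beta-hydroxysteroid dehydrogenase, read 3.61 and 3.53 at 7.5 h and 5.29 and 5.72 at 10 h, a difference of 0.62 ± 0.059. Its relative Hsd3b6 read 7.83 and 7.98 at 7.5 h and 11.6 and 11.1 at 10 h (0.52 ± 0.035). These 2 genes are close copies, and the probes may share signal. For both, the 7.5 h pool was the lowest of the 5 pools, and no array of the 7.5 h and 10 h pools overlapped.

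Nr0b1 read 3.29 and 3.21 at 7.5 h and 4.69 and 4.97 at 10 h (0.57 ± 0.046), with control arrays at 4.59 and 5.46. Sult1e1, the estrogen sulfotransferase, read 15.2 and 14.6 at 7.5 h and 20.2 and 22.1 at 10 h (0.51 ± 0.07), above all other arrays. Both lay under the 1.5-fold limit. The cytochromes moved less: Cyp17a1 differed by 0.18 ± 0.021 and Cyp11a1 by 0.13 ± 0.025, again without overlap. Scarb1, a receptor that takes up cholesterol esters, went the other way, at -0.10 ± 0.03.

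Of 22 measured members of the list for Leydig cell steroidogenesis, 19 passed the filter. Both 10 h arrays lay above both 7.5 h arrays for 12 of the 19 and below for 3, against 30.1% and 27.3% of 6573 genes. Their median difference was 0.175, beside 0.0089 over all genes, and 2 were higher by 1.5-fold, Star and Hsd3b1, against 1.25% of genes (1.2% lower). With arrays centred on probes of similar ID number the list's median was 0.105, Star differed by 1.04, and Hsd3b1, at 0.45, no longer passed 1.5-fold. The 4 measured of 6 Leydig cell markers, all of them also on that list, summed to 95.8 to 96.8 at 7.5 h and 110.2 to 113.2 at 10 h. The range at 2.5 h was 110.5 to 124.8 and in the control 94.4 to 100.2. Most of these sums came from Cyp17a1 alone, at 87.7 in the 7.5 h pool and 99.1 in the 10 h pool. With arrays centred on probes of similar ID number, the difference of Cyp17a1 was 0.071, beside 0.175 without that centring.

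**Figure D2:**
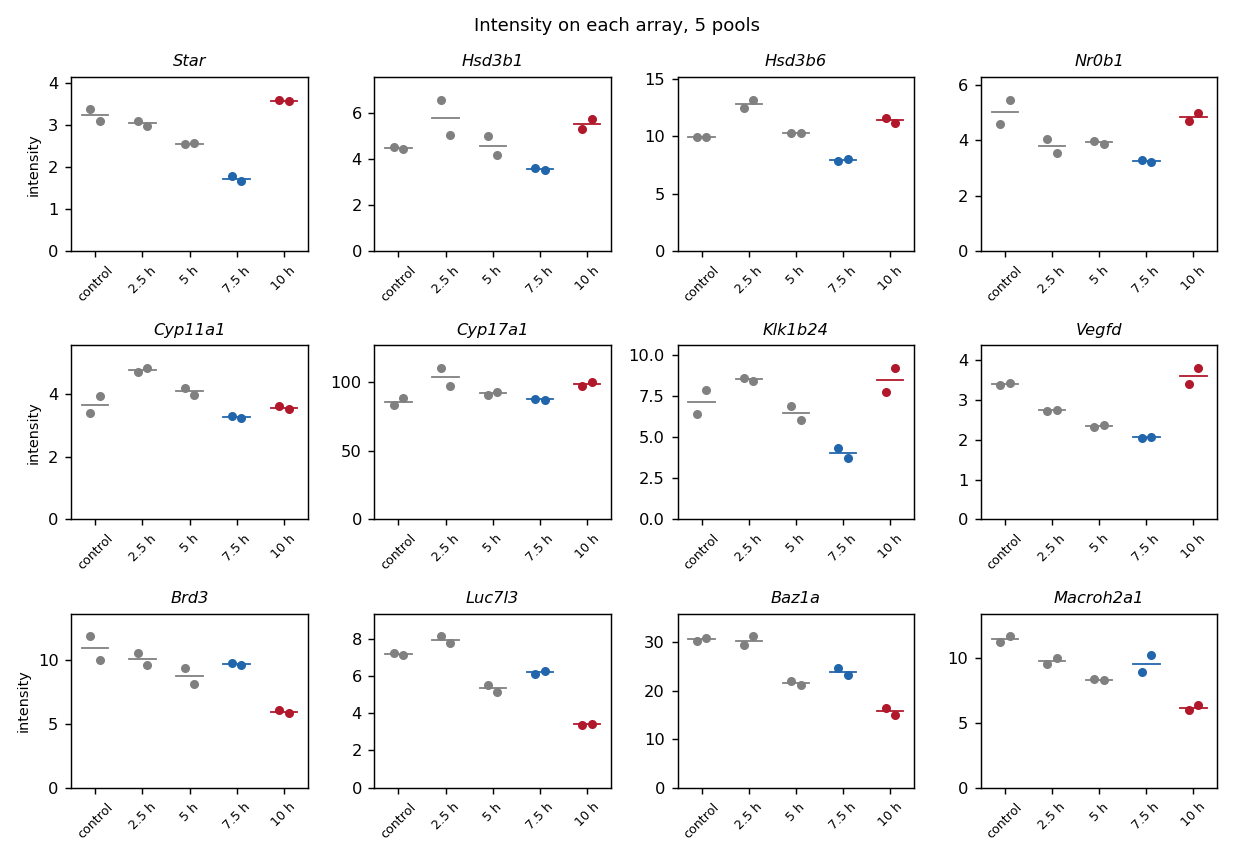
Intensity (linear, from 0) of 12 genes on each of 10 arrays by pool, with a line at the mean of the 2 arrays; blue marks 7.5 h and red 10 h. Star, Hsd3b1, Hsd3b6, Klk1b24 and Vegfd have their lowest pool at 7.5 h, and Brd3, Luc7l3, Baz1a and Macroh2a1 have theirs at 10 h.

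The promoters of members that moved together are shown as the 250 bases upstream of the RefSeq start (assembly GRCm38.p6), in lower case, with the half-site AGGTCA or its other strand TGACCT in capitals. This search was chosen after the values were seen.
Nr0b1, chrX:86191525-86191774, plus strand: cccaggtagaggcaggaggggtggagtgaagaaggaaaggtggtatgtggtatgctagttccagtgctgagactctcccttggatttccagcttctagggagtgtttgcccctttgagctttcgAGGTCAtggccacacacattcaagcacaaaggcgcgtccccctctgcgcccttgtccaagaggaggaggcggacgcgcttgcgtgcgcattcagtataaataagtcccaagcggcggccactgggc
Sult1e1, chr5:87591612-87591861, minus strand: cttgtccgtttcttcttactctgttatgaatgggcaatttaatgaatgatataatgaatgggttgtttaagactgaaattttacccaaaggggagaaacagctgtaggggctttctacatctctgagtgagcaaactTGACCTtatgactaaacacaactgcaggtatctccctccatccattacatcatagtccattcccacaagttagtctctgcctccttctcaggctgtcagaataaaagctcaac
Hsd3b1, chr3:98859795-98860044, minus strand: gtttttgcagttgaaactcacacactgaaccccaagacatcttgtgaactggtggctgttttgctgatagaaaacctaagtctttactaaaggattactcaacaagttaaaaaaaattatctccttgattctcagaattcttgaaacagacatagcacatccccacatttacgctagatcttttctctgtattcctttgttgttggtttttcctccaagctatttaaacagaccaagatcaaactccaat
Hsd3b6, chr3:98814444-98814693, minus strand: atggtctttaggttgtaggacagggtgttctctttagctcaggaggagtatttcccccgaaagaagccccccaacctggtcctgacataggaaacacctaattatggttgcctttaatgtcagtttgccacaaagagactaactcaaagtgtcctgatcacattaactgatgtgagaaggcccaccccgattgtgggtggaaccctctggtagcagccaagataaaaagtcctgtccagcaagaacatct
Klk1b24, chr7:44187986-44188235, plus strand: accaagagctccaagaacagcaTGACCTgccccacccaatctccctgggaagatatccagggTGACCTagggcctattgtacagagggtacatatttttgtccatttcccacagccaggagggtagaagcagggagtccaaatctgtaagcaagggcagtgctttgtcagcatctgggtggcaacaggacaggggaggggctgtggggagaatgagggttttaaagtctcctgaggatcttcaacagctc
Nr0b1 held 1 half-site, Sult1e1 held 1 and Klk1b24 held 2, while Hsd3b1 and Hsd3b6 held none. Klk1b24, Dbp and Vegfd were searched from outside the steroidogenesis list, and Dbp and Vegfd, not printed here, held none. Star had no entry in the table of promoters, so its promoter was not searched. Of the 12 list members with 10 h arrays above, 9 had an entry in the table, and 3 of these (Nr0b1, Sult1e1 and Cyp11a1) held a half-site in any window. Of the other 7 members, 3 had an entry and 0 held one. Among all 32851 windows 14% held it, a share per window, while the counts above are per gene. The 9 genes had 10 windows and the other 3 had 4. Cyp11a1 held the half-site in 1 of its 2 windows. CACGTG and TATAAA were searched on both strands too, and 6.02% and 12.4% of all windows held them. TATAAA was found in Nr0b1 and Vegfd, and in neither Hsd3b1 nor Hsd3b6. CACGTG was found in Hsd17b7 and in 1 of the 2 windows of Lipe, both of them list members. These matches are descriptions of letters, not of binding.

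Klk1b24, a member of the large kallikrein family of serine proteases, was the other bright gene past 2-fold. Its 7.5 h arrays read 4.34 and 3.73 and its 10 h arrays 7.75 and 9.19, a difference of 1.07 ± 0.16. The control arrays read 6.42 and 7.88, so that the 7.5 h pool stood apart as the low one. Without the second 7.5 h array the difference was 0.96 and without the second 10 h array 0.95, both under 2-fold. Probes of this family may share signal between its members.

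Further bright genes were higher at 10 h by at least 1.5-fold. Vegfd, a growth factor for lymphatic vessels, read 2.04 and 2.08 at 7.5 h and 3.4 and 3.79 at 10 h (0.80 ± 0.08), with 3.37 and 3.41 in the control. Mgp, which inhibits calcification of matrix, read 4.03 and 4.2 against 6.51 and 7.7 (0.78 ± 0.13). For both, the 7.5 h arrays were the lowest of all arrays. Dbp, an output gene of the circadian clock, read 1.83 and 1.82 at 7.5 h and 3.11 and 3.49 at 10 h (0.85 ± 0.082). Its 10 h arrays were above every other array of the series.

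Gpx3, a secreted glutathione peroxidase, differed by 0.75 ± 0.037 and was highest at 2.5 h, at 5.86 and 5.93. Hmox1, the heme-degrading enzyme of the oxidative stress response, read 3.41 and 3.3 at 7.5 h and 5.13 and 5.29 at 10 h (0.64 ± 0.031). Lrp1, an endocytic receptor, differed by 0.63 ± 0.17. With arrays centred by probe number, Gpx3 and Lrp1 differed by 0.53 each, under the 1.5-fold limit. For Hmox1 the 10 h arrays were the highest of the 10.

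Single genes for nuclear proteins were lower at 10 h, and were picked gene by gene, not as a group. For acetyltransferases and bromodomain readers, 9 of 23 members lay above and 8 below (all genes 30.1% and 27.3%), with a median of 0.009. For splicing factors and hnRNPs, 16 of 59 lay above and 22 below, with a median of -0.0013. Luc7l3, a splicing factor, read 6.11 and 6.28 at 7.5 h and 3.39 and 3.41 at 10 h (-0.87 ± 0.021), with 7.24 and 7.12 in the control. Brd3, a bromodomain protein that reads acetylated histones, read 9.79 and 9.62 against 6.07 and 5.83 (-0.71 ± 0.031), with 11.9 and 10.1 in the control. In both, the 10 h arrays lay below all 8 others.

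Baz1a, a subunit of a chromatin remodelling complex, read 24.7 and 23.1 at 7.5 h and 16.5 and 15 at 10 h (-0.60 ± 0.081). Macroh2a1, a histone variant, read 8.94 and 10.2 against 5.99 and 6.33 (-0.63 ± 0.1). Sltm, a nuclear RNA-binding protein, differed by -0.70 ± 0.078, and Acin1, a dimmer probe for a nuclear protein linked to splicing and apoptosis, read 1.78 and 1.82 against 0.833 and 0.809 (-1.13 ± 0.026, and just under 2-fold with arrays centred by probe number). For each of these 4 genes the 10 h pool was the lowest of the 5.

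Alkbh7, a mitochondrial member of the AlkB family, read 5.12 and 5.06 at 7.5 h and 2.62 and 2.95 at 10 h (-0.87 ± 0.086). Nubp2, of the machinery that builds iron-sulfur clusters, differed by -0.62 ± 0.12, and Gnai2, an inhibitory G protein subunit, by -0.61 ± 0.011. The control arrays of Gnai2, at 2.78 and 3.52, lay between its 10 h arrays, at 2.61 and 2.58, and its 7.5 h arrays, at 3.94 and 3.97. Tex101, a germ cell surface protein, read 20.2 and 18.6 against 13.5 and 12.8 (-0.56 ± 0.068), short of 1.5-fold.

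The place of the pools differed between the directions. Of the 97 probes lower at 10 h by 1.5-fold, the 10 h pool was the lowest TSA pool for 90. The 7.5 h pool was the highest TSA pool for 39 of them and the nearer one to control for 75 (77.3%). Of the 93 higher probes, the 7.5 h pool was the lowest TSA pool for 77. The 10 h pool was the highest TSA pool for 65 of them and nearer to control for 46 (49.5%). Among all probes without overlap, the 10 h pool was nearer to control for 41.3% of those above and 35.5% of those below. Being called at 10 h against 7.5 h makes an extreme pool likely, so these counts describe the called probes and test nothing.

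Probes on the X chromosome leaned towards the 10 h pool. This was noticed when all 21 chromosomes were looked at, after the values were known. Of 223 compared X-linked probes, both 10 h arrays lay above both 7.5 h arrays for 112 (50.2%) and below for 19 (8.52%), with a median difference of 0.125. On the 19 autosomes the medians ran from -0.019 to 0.038, the share above from 23.9% to 35.1% and the share below from 23.2% to 32.1%. The X chromosome is silenced in spermatocytes during meiosis, and much of its single-copy expression in the testis comes from somatic cells and spermatogonia. The part of any cell type in the lean was not tested.

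**Figure D3:**
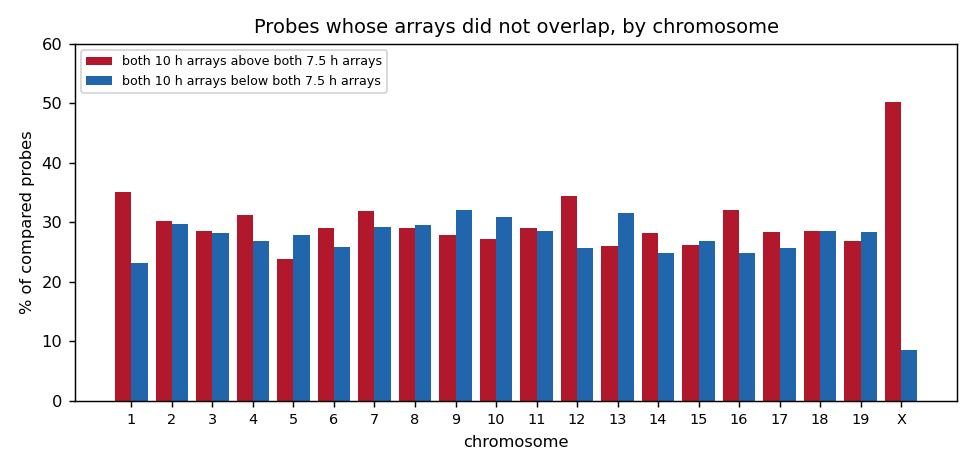
Percent of compared probes on each chromosome whose 10 h arrays both lay above (red) or both below (blue) the 7.5 h arrays. The X chromosome stands at 50.2% above and 8.52% below, outside the range of the 19 autosomes; chromosome Y, with 9 probes, is not drawn.

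On the X chromosome 5 of 223 probes were higher by 1.5-fold and 0 were lower, against 1.25% and 1.31% of all compared probes. The 5 were Vegfd, Capn6, Smarca1, L1cam and Ap1s2. Smarca1, a chromatin remodelling ATPase, read 0.553 and 0.559 at 7.5 h and 0.885 and 0.877 at 10 h (0.66 ± 0.011). Hdac6, a cytoplasmic deacetylase of tubulin, read 11.5 and 10.9 against 14.5 and 15 (0.40 ± 0.046), and both probes of Usp9x, a deubiquitinase, were higher at 0.43 and 0.30. The lowest differences included Cylc1, a protein of the spermatid head, at -0.34 ± 0.029, and Alas2, of heme synthesis in red cells, at -0.38 ± 0.11.

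The lean was present in each of 3 classes of brightness, with medians of 0.131, 0.130 and 0.086 from dim to bright. Autosomal medians in these classes were 0.039, -0.003 and -0.006. In the dimmest class 37.2% of X-linked probes lay above and 9.3% below, against 31.3% and 21.4% of autosomal ones. The X-linked median was 0.120 once each array was centred on probes of similar ID number. Without the members of the somatic cell lists it was 0.124. That setting kept 215 of the 223 probes, so it cannot tell the part of somatic cells, which was not tested. Against control, the X-linked median was 0.163 for the 10 h pool and 0.029 for the 7.5 h pool, and these comparisons share their pools with the one above. The X chromosome leaned in the earlier steps too. From 2.5 to 5 h its median was 0.073, with 44.4% above and 16.1% below, against 26.2% and 34.7% of autosomal probes. From 5 to 7.5 h it was -0.063, with 22% above and 41.3% below, against 33.4% and 26.8% of autosomal probes. The 5 h pool against control gave 0.083, with 50.7% above and 26% below, against 35.4% and 43.2% of autosomal probes. From 7.5 to 10 h, 10 h arrays lay below for 7 of 10 germ cell markers and above for 2, against 27.3% and 30.1% of all genes. The median difference of these markers was small, at -0.090, and their summed intensities overlapped between the pools. The part of these markers in the X-linked values was not tested.

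Germ cell lists differed in their lean. Over all genes, 30.1% lay above and 27.3% below. For spermatogonia and premeiotic germ cells, 7 of 21 lay above and 7 below, with a median of -0.010. In the list for meiosis and the piRNA pathway, 10 h arrays lay below for 16 of 33 compared members and above for 4, with a median of -0.057 and 0 members past 1.5-fold. Sycp3, of the axis of meiotic chromosomes, read 30.6 and 27.2 at 7.5 h and 23.1 and 21.8 at 10 h (-0.36 ± 0.094). Piwil1, which binds piRNAs, read 10.2 and 9.82 against 7.97 and 7.4 (-0.38 ± 0.061). For the genes of spermatids and sperm, the counts were 19 above and 11 below of 54, with a median of 0.012, close to all genes. Of the cell cycle lists, 18 of 48 members for G1 and S phase lay below (37.5%) and 6 above, and 18 of 41 for mitosis lay below (43.9%) and 7 above.

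Among histones, their chaperones and sperm packaging proteins, 13 of 23 members lay below and 5 above (all genes 27.3% and 30.1%), with a median of -0.125, or -0.081 with arrays centred by probe number. The 2 members lower by 1.5-fold, against 1.2% of genes, were Macroh2a1 and Hira, a histone chaperone, at -0.67 ± 0.16. Hira was dim, at 0.604 and 0.487 against 0.329 and 0.351. Tnp1, a transition protein of spermatids, read 197 and 175 at 7.5 h and 199 and 250 at 10 h, and the wide 10 h duplicates leave its 0.26 ± 0.18 uncertain.

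Matrix genes leaned to the 10 h pool. Of 56 compared members of the list for extracellular matrix, integrins and proteases, 33 lay above (58.9%) and 4 below (7.14%), against 30.1% and 27.3% of all genes, with a median of 0.149. Past 1.5-fold 4 were higher, against 1.25% of genes. Col6a3, a chain of collagen VI, read 1.36 and 1.24 at 7.5 h and 2.28 and 2.26 at 10 h (0.80 ± 0.067). Col5a2, Lama1 and Fbln2 also passed 1.5-fold, at 0.95, 0.72 and 0.66, all with intensities under 1. Genes of peritubular and smooth muscle cells lay above for 11 of 17 (64.7%) and below for 1 (5.88%), with a median of 0.185. That median was 0.013 once arrays were centred by probe number, while the matrix median was 0.151. Liver and plasma protein genes, mostly dim, lay above for 18 of 35 and below for 4, with a median of 0.204, and 4 were higher and 1 lower by 1.5-fold. Some liver genes passed the filter, at 0.207, only through the 5 h pool. Apoa1 read 0.0824 at 7.5 h, 0.113 at 10 h and 28.5 at 5 h. Ttr read 0.0605, 0.0557 and 19. The count and median of this list thus draw in part on values near the low end of the scale.

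**Figure D4:**
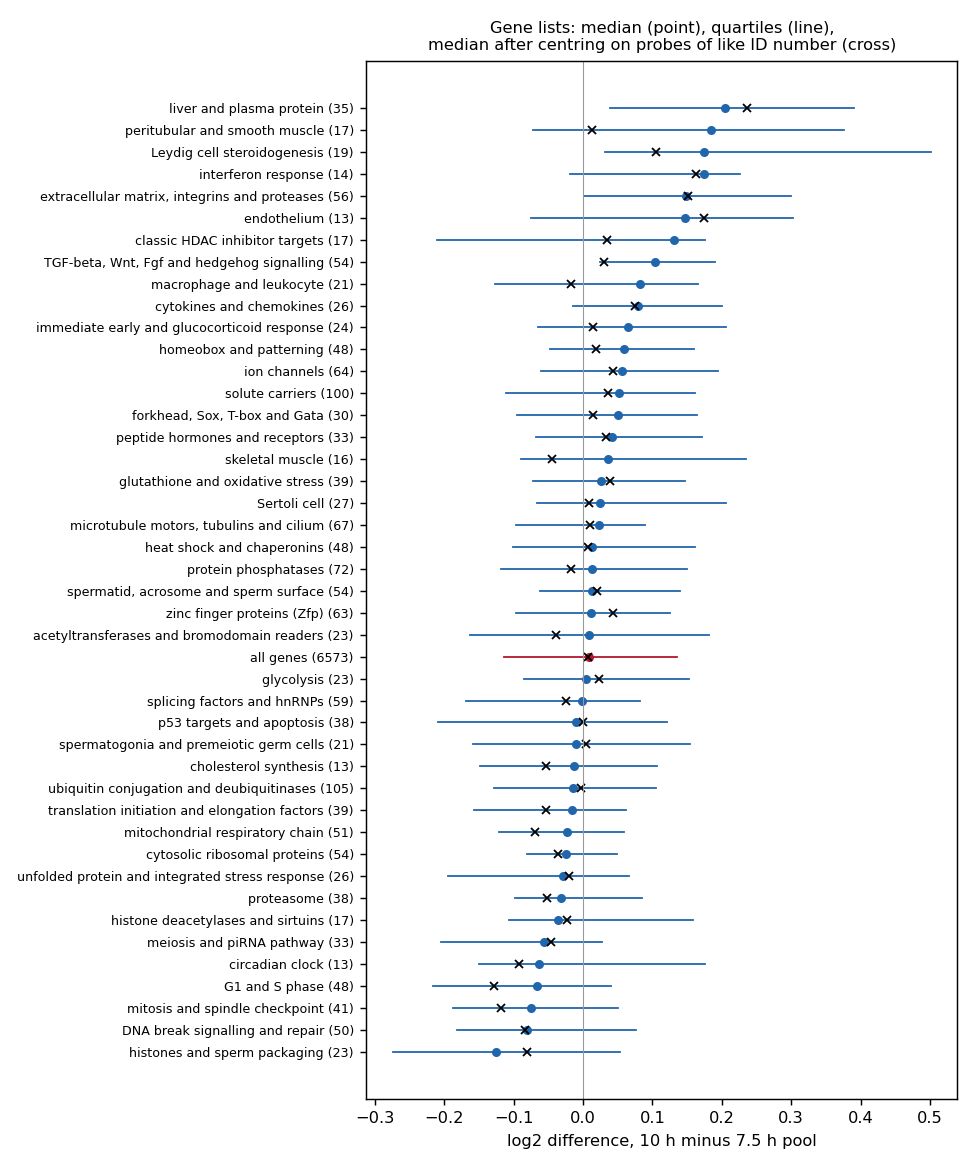
Log2 difference of the 10 h minus the 7.5 h pool for each gene list with at least 10 compared members (number in brackets): point, median; line, quartiles; cross, median with arrays centred by probe number. The median over all genes is 0.0089 (red), matrix genes keep theirs at 0.151 after centring, and peritubular genes do not.

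Genes that commonly respond to histone deacetylase inhibitors moved both ways. Of 17, 9 lay above (52.9%) and 6 below (35.3%), against 30.1% and 27.3% of all genes. Their median was 0.131, or 0.035 with arrays centred by probe number. Hmox1 was higher by 1.5-fold, and Gadd45b and Ccne1, a growth arrest gene and a cyclin, were lower, at -0.65 ± 0.25 and -0.62 ± 0.26. Cdkn1a, the cell cycle inhibitor that TSA raises in many cell lines, read 3.08 and 3.17 at 7.5 h and 2.77 and 2.64 at 10 h (-0.21 ± 0.039). The targets Hdac1 and Hdac2 had overlapping arrays, at 0.16 ± 0.24 and -0.046 ± 0.11, and Hdac3 differed by 0.069 ± 0.034.

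Of the clock genes, 5 of 13 lay above (38.5%) and 3 below (23.1%), against 30.1% and 27.3% of all genes. Dbp alone passed 1.5-fold, and Per1 had overlapping arrays, at -0.20 ± 0.23. In the macrophage and leukocyte list, 8 of 21 lay above (38.1%) and 6 below (28.6%), against 30.1% and 27.3% of all genes. Ctss, a brighter member, was higher without overlap, at 0.17 ± 0.069. The 2 members past 2-fold were both lower, against 0.152% of genes each way. H2-Aa, a class II antigen-presenting chain, read 0.912 and 0.872 at 7.5 h and 0.402 and 0.417 at 10 h (-1.12 ± 0.042). H2-Eb1 and Cd74, of the same pathway, differed by -0.45 ± 0.16 and -0.27 ± 0.14. Cd52, a small lymphocyte surface protein, read 0.412 and 0.263 against 0.0865 and 0.0942 (-1.87 ± 0.33), with 1.18 and 1.22 in the control. The Cd52 pool means at 2.5 h and 5 h were 0.117 and 0.123. Cd52 passed the filter on its mean over all 10 arrays, 0.220, which draws on the bright control pool. Its 10 h arrays lay under the filter level. The count of 2 members past 2-fold thus rests in part on values near the low end of the scale.

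The other probes past 2-fold were dim. Ngp, a granule protein of neutrophils, read 0.674 and 0.837 at 7.5 h and 0.33 and 0.322 at 10 h (-1.20 ± 0.16). Ddah2 and Elavl3, a neuronal RNA-binding protein, were lower, at -1.06 ± 0.039 and -1.26 ± 0.18. Pxmp4, a peroxisomal membrane protein, was lower on one probe, at -1.49 ± 0.069, while its other probe gave -0.10 ± 0.11 with overlapping arrays. Adam10 and Sertad3 were lower by -1.55 and -1.37.

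Among the 7422 compared probes the largest difference, -2.84 ± 0.055, belonged to a probe without a symbol (number 2712). It read 0.702 and 0.74 at 7.5 h and 0.104 and 0.0981 at 10 h. The control arrays read 12.4 and 13.1 and the 2.5 h arrays 0.0803 and 0.0612. Its 10 h arrays lay under the filter level of 0.207, and the probe passed on its mean over all 10 arrays, so the fold rests on values near the low end of the scale. A second probe without a symbol, number 10356, was lower by -1.27 ± 0.17, and another, number 2913, was higher at 1.07 ± 0.71.

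Several called values rested on duplicates that stood apart. Itih2, a plasma protein, read 0.302 and 0.0678 at 7.5 h, which gave 1.37 ± 1.09, and Chrna7, a nicotinic receptor subunit, read 0.218 and 1.03, which gave -1.30 ± 1.12. Slc38a2, an amino acid transporter, read 1.06 and 0.446 (1.16 ± 0.64). In all, 5 of the 23 called probes had 7.5 h duplicates over 2-fold apart and 2 had such 10 h duplicates. The remaining higher probes were Orm1 (1.17), 5033417F24Rik (1.13), Armh4 (1.12), Mpv17 (1.08), Nupr1 (1.05) and Insrr (1.01). Orm1 passed the filter through the 5 h pool, at 2.03, against 0.105 at 7.5 h and 0.236 at 10 h. At the limit, Insrr lay inside by 0.0059, and Txk and Map4k5, both at 1.00 when rounded, lay outside.

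The difference also moved with the ID number of the probe. Its median was 0.123 in the tenth of compared probes with the lowest numbers, where 21 were higher and 3 lower by 1.5-fold. In the tenth with the highest numbers the median was -0.045, with 6 higher and 22 lower. With arrays centred on probes of like number, 72 of the 93 higher and 80 of the 97 lower probes still passed 1.5-fold. The part of this gradient in single results was not tested.

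Counts of the earlier steps stand beside this one. From 5 to 7.5 h, 7 probes were higher (0.0943%) and 48 lower (0.647%) by 2-fold, 0.741% in all against 0.31% from 7.5 to 10 h. From 2.5 to 5 h 48 were higher (0.647%) and 4 lower (0.0539%), 0.701% in all. Without the liver and plasma protein list the counts were close: 22 higher and 4 lower from 2.5 to 5 h, 7 and 21 from 5 to 7.5 h, and 9 and 12 from 7.5 to 10 h. Neighbouring steps share a pool, so their directions are not independent.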

How the data were processed

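The deposited table held intensity values of 10012 probes on 10 CodeLink arrays, linear and normalised by the authors; their sorted values were identical on all arrays, so they had been quantile normalised. Background correction and software count as not given in the sources used here. In all 115 probes had no values. Values under the 5th percentile (0.0364) were raised to it, turned to log2 and shifted to a common median, and the dimmest 25% (mean under 0.207) were left out. This left 7422 probes for 6573 genes, the brightest probe standing for a gene in lists. Symbols came from the platform table, updated through RefSeq (GRCm38.p6); 8983 probes had 1 symbol, 1 several and 1028 none. The standard error comes from duplicate arrays. No counting depth applies to arrays, and their number limits the precision.

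Named genes were every symbol past 2-fold, bright probes past 1.5-fold with a small error, up to 4 bright members per list, and 35 genes always, of which 30 were measured. Members, the 47 lists and the rules were chosen with earlier results of these data known. Sult1e1, Scarb1, Hira, H2-Eb1, Gadd45b, Ccne1, Smarca1, Cylc1, Alas2, the matrix genes and the probes without a symbol fell outside that rule and were picked after their values were seen. The chromosomes, the promoter search and which list medians to lead with were chosen after the values were seen. Alternatives changed the filter, floor, offset, shift, size limit, arrays and probes. Python 3.11.15, pandas 2.3.3, numpy 2.4.6 and matplotlib 3.10.9 were used.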

Additional observations from a re-analysis of the deposited data

How the results depend on the processing

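No paired analysis was possible because the comparison has 1 pool a side and gives no test, and the duplicate numbers mark technical arrays. The counts of 11 higher and 12 lower probes (23 in all) became 119, 155 and 274 with no filter, 3, 2 and 5 with the lowest 50% left out, and 0, 2 and 2 with an offset of 0.5. They became 93, 97 and 190 at 1.5-fold, 0, 2 and 2 at 3-fold, and 5, 6 and 11 where both pools had to pass the filter. Without probes whose duplicates stood over 2-fold apart, 5 were higher. Leaving out 1 array gave 11 to 27 higher, 17 to 33 lower and 32 to 60 in all, the highest without the first 7.5 h array (27, 33 and 60). Without the second 7.5 h array 19 were lower, and without the second 10 h array 21. Of 20 called and named probes, 4 were under the limit with arrays centred by probe number and 20 with the offset, and none reversed in any setting run.

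Centring moved the list medians to 0.105 (Leydig), 0.013 (peritubular), -0.017 (macrophage) and -0.081 (histones). With an array left out they ran from 0.139 to 0.181 (Leydig), 0.125 to 0.214 (peritubular), -0.023 to 0.108 (macrophage), 0.123 to 0.155 (matrix), -0.137 to -0.088 (histones) and -0.069 to 0.020 (clock). The macrophage and clock medians, 0.082 and -0.064, therefore have no settled sign. The macrophage one turned to -0.023 without the second 10 h array, and the clock one to 0.020 and 0.017 without the first and the second 7.5 h array. The X-linked median ran from 0.114 to 0.127 and was 0.086 among the brightest probes. The counts of 48 in the earlier steps became 22 and 21 without the liver list. That list, the X-linked settings and germ lists without X members were added after seeing the data.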
